A study of Mus musculus with 50 samples.

Results

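The genes described here are 10 members of the T cell checkpoint system, chosen by name: the inhibitory receptors Pdcd1 (PD-1), Ctla4, Lag3, Havcr2 (TIM-3) and Tigit, the costimulatory receptors Icos and Tnfrsf9 (4-1BB), the PD-1 ligands Cd274 (PD-L1) and Pdcd1lg2 (PD-L2), and the transcription factor Tox. Each matched 1 row of a count table of 37469 identifiers, and all 10 passed the filter on low counts among 19327 genes tested. They were followed in bulk RNA from 48 mouse sarcomas and in 2 single libraries of a sarcoma called 402230.

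Primary tumors arose in Trp53 fl/fl 129/SvJae mice after Adeno-Cre, an adenovirus carrying Cre recombinase, and the carcinogen MCA were injected into the gastrocnemius muscle, so their cells lack p53. Transplant tumors grew in syngeneic mice from cells of a single line, 402230, taken from 1 untreated primary sarcoma, so all 16 transplants share 1 tumor of origin whereas the 32 primary tumors each arose separately. Tumors of either model were irradiated with 20 Gy or not at all, the mice were given an antibody to PD-1 or an isotype control, and tumors were collected 3 days later. The 4 treatments (0 Gy with isotype, which is called untreated here, 0 Gy with anti-PD-1, 20 Gy with isotype, and 20 Gy with anti-PD-1, called the combination) held 4 transplant and 8 primary tumors each.

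T cells that meet antigen repeatedly put inhibitory receptors on their surface, and ligands on tumor and myeloid cells then restrain them. PD-L1 is induced by interferon in many cell types and PD-L2 mainly in macrophages and dendritic cells, whereas CD28-family and TNF-receptor-family costimulators such as ICOS and 4-1BB are raised on activated T cells. TIM-3 is also made by macrophages and dendritic cells, and LAG-3, TIGIT and 4-1BB also by NK cells. In bulk tumor RNA, fewer cells of a type and less RNA per cell cannot be told apart.

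Total counts ran from 31810461 to 54008259 per tumor, and levels are given as CPM, counts scaled to a library of 1000000 after TMM normalization, so that 1 CPM stood for 31.8 counts in the shallowest tumor. Trp53, the deleted gene, was still counted in every tumor, from 20.2 to 28.0 CPM in untreated primary tumors and from 26.1 to 38.4 CPM in untreated transplants, but the table sums deleted and remaining exons and the host's own cells, and so checks no label. The defining markers of the 2 single libraries went against their labels. The library labelled parental tumor held 5 counts of Ptprc (CD45, on all leukocytes), 22 of Csf1r (macrophages), 5 of Pecam1 (endothelium) and 0 of Cd3d, Cd3e and Cd3g, among 48457411 counts. The library labelled cell line held 3779 counts of Ptprc, 10779 of Csf1r and 4816 of Pecam1 among 41226531. No comparison between groups uses either library.

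The promoters of the ligands Cd274 and Pdcd1lg2, which rose most after radiation in primary tumors, and 1 of the 2 promoters listed for the costimulatory receptor Tnfrsf9, the one with more motif matches, are shown as the 250 bases before a transcription start, 5′ to 3′ on the gene's strand, from RefSeq on GRCm38.p6. Capitals mark matches on either strand to an interferon regulatory factor (IRF) motif, a STAT motif (GAS, TTCNNNGAA), an AP-1 motif (TGANTCA), an NFAT motif (TGGAAA) or an NF-kB motif.
Cd274, chr19:29367188-29367437, plus strand: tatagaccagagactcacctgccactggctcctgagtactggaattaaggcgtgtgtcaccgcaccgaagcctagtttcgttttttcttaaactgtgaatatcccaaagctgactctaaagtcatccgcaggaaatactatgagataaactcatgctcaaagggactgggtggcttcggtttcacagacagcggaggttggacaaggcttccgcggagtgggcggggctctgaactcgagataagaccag
Pdcd1lg2, chr19:29410669-29410918, plus strand: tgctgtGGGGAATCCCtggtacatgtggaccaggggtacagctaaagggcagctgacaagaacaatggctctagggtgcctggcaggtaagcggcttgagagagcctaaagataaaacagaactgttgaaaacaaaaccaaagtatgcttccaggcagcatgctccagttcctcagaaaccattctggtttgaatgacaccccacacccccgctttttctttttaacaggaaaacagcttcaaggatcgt
Tnfrsf9, chr4:150927749-150927998, plus strand: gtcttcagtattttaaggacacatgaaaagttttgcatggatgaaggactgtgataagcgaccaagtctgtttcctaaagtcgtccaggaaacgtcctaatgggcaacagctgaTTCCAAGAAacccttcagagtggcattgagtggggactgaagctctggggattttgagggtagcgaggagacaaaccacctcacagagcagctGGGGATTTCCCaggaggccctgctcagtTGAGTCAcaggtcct
The Cd274 window held none of these 5 motifs, the Pdcd1lg2 window held an NF-kB match, and the Tnfrsf9 window shown held a GAS match, an AP-1 match and 2 overlapping NF-kB matches. The other Tnfrsf9 window, chr4:150919905-150920154, held 1 NFAT match and none of the other motifs. Of 32851 promoter windows of the same length, 2.98% held the interferon regulatory factor motif, 7.02% the GAS motif, 6.75% the AP-1 motif, 18.6% the NFAT motif and 7.25% the NF-kB motif. A match describes letters only. Promoters were found for 7 of the 10 genes, which left out Lag3, Icos and Tox.

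The 10 genes lie on 6 chromosomes of the mm10 genome. Pdcd1 (chromosome 1, 94038305 to 94052553, minus strand), Ctla4 (60887000 to 60915832, plus strand) and Icos (60977927 to 61000320, plus strand) share chromosome 1, with Icos next to Ctla4. Cd274 (29367455 to 29388095) and Pdcd1lg2 (29410919 to 29471161) are neighbours on the plus strand of chromosome 19. The exons of Cd274 overlap those of an antisense gene over 511 bases, and those of Tox overlap an antisense gene over 260 bases. Because the strand setting of the counting is not given in the sources used here, reads in those stretches may belong to either gene.

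Compared per length, as mean CPM per kilobase of exon in untreated transplants, Havcr2 stood at 13.1, Cd274 at 7.29, Pdcd1 at 6.38, Tigit at 6.00, Tnfrsf9 at 4.53 and Lag3 at 4.37, followed by Icos at 1.81, Ctla4 at 1.80, Pdcd1lg2 at 0.709 and Tox at 0.149. Untreated primary tumors were likewise led by Havcr2, at 6.37, but Tigit at 2.93 and Lag3 at 2.79 came next and Pdcd1 stood at 1.26. Pdcd1lg2, at 0.156, was the lowest of the 10 there and Tox was at 0.311.

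**Figure D1:**
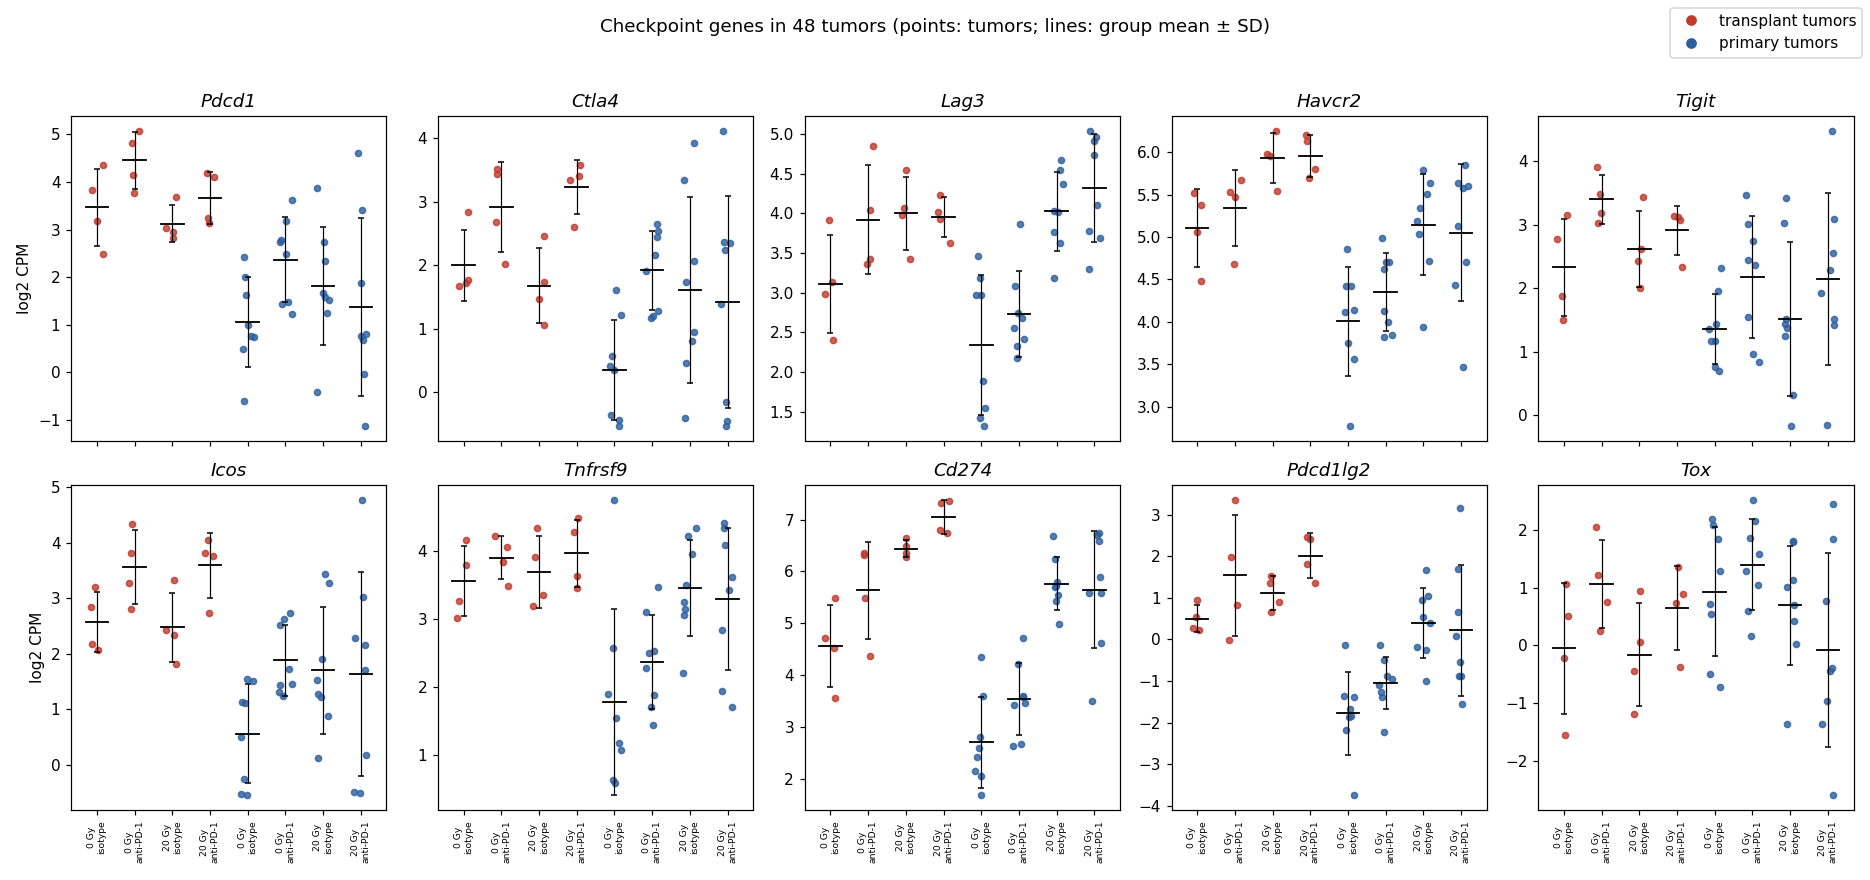
Level (log2 CPM, vertical axis, a separate scale for each gene) of the 10 checkpoint genes in each of 48 tumors, by dose and antibody, with transplants in red, primary tumors in blue and lines for the group mean ± SD. The mean of Cd274 is higher at 20 Gy in both models for either antibody, and untreated transplants lie wholly above untreated primary tumors for Pdcd1, Ctla4, Icos and Pdcd1lg2.

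The first comparison sets transplant against primary tumors. It asks how the checkpoint genes differ between tumors grown from an injected line and tumors that arose in place. All transplants grew from the same line, here and in every later comparison of the models. A model effect and a trait of that line therefore cannot be told apart. Without treatment, 5 of the 10 genes were higher in transplants and none was lower, where 3.88% of all genes tested were called higher. The 5 were Pdcd1, Icos, Havcr2, Cd274 and Pdcd1lg2.

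Pdcd1, the receptor that the treatment antibody blocks, stood at 9.02, 20.4, 14.2 and 5.58 CPM in the 4 untreated transplants and at 0.616 to 5.32 CPM, median 1.79, in the 8 untreated primary tumors. The groups did not overlap, and the log2 fold change was 2.33 ± 0.66 (SE, adjusted p = 0.0178). Lack of overlap, here and below, only describes a gene's values, and the share of all genes without overlap is not given. Icos, a costimulator of T cell help, stood at 4.49, 9.09, 7.07 and 4.15 CPM against 0.633 to 2.87, again without overlap, with a log2 fold change of 1.89 ± 0.62 (adjusted p = 0.0421). Ctla4, which competes with CD28 for CD80 and CD86, also did not overlap, at 3.13 to 7.08 against 0.641 to 3.00 CPM, but its adjusted p was 0.0949.

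Among the ligands, Cd274 stood at 22.9, 26.5, 44.6 and 11.8 CPM in untreated transplants and 3.18 to 20.5 CPM, median 5.67, in untreated primary tumors. Of the transplants, 3 lay above every primary tumor, and the log2 fold change was 1.76 ± 0.44 (adjusted p = 0.00653). Pdcd1lg2 stood at 1.17, 1.88, 1.40 and 1.12 CPM against 0.027 to 0.860 CPM, with no overlap and a log2 fold change of 2.17 ± 0.63 (adjusted p = 0.0211). Havcr2 ran from 22.3 to 45.8 CPM in transplants and from 6.78 to 29.1 CPM in the primary group, and its log2 fold change was 1.05 ± 0.31 (adjusted p = 0.0262).

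The count of 5 fell to 1 without untreated transplant replicate 2, to 2 without replicate 3 and to 3 without replicate 1, with 4 transplants in the group. The direction of the 5 was the same throughout. Among T cell genes in the same tumors, Cd8a was higher in transplants (log2 fold change 2.19, adjusted p = 0.0365), while Cd3d (2.25, adjusted p = 0.0530), Cd3e (1.78, adjusted p = 0.0946) and Cd4 (-0.25, adjusted p = 0.817) were not called.

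With anti-PD-1 alone, 4 of the 10 genes were higher in transplants, Cd274, Pdcd1lg2, Havcr2 and Lag3, against 3.39% of all genes. Havcr2 (0.98 ± 0.31, adjusted p = 0.0468) lay at the threshold and passed in 5 of 26 alternatives. The 4 became 2 without anti-PD-1 transplant replicate 1 or replicate 3. None of the 10 was called after 20 Gy, where 2.47% of all genes were called higher, and none after the combination, where 3.04% were. At an unadjusted p under 0.05, 1 and 2 of the 10 genes passed in those last comparisons. Of all 19327 genes tested, 3599 and 4610 passed at that same threshold. Cd274, which overlapped between the models under every other treatment, did not overlap after the combination. It stood there at 107.6 to 163 CPM in transplants and 11.3 to 107.02 CPM in primary tumors, with an adjusted p of 0.102 by edgeR. The comparison after the combination rested partly on 1 primary tumor, combination replicate 4, which had the highest Cd3e of all 48 tumors. Without it 4 genes were called, and the share of all genes called in that fit is not given.

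Averaged over the 4 treatments, 8 of the 10 genes were higher in transplants and none was lower, beside 15.7% of all genes. The median log2 fold change of the 10 was 0.83, against 0.00 over all genes. The largest values belonged to Pdcd1lg2 (1.73 ± 0.31, adjusted p = 2.36e-05), Pdcd1 (1.61 ± 0.33, adjusted p = 0.000145), Cd274 (1.40 ± 0.22, adjusted p = 2.17e-06) and Icos (1.26 ± 0.31, adjusted p = 0.00131). Havcr2 (0.87), Tnfrsf9 (0.78), Ctla4 (0.79, adjusted p = 0.0455) and Tigit (0.76, adjusted p = 0.0279) were also called, the last of these losing its call without untreated transplant replicate 2, anti-PD-1 transplant replicate 3 or irradiated transplant replicate 3. Ctla4 lost its call in 10 of the 19 fits that left out 1 library, with an adjusted p of up to 0.0970. Lag3 (0.34, adjusted p = 0.163) was not called. Tox, which sets the exhausted state of T cells, had a value of the other sign (-0.58 ± 0.34, adjusted p = 0.188).

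Most T cell markers were also higher in transplants. Of 14 T cell markers, 10 were higher in transplants averaged over treatments, among them Cd3d (log2 fold change 1.66), Cd3e (1.34), Cd3g (1.27) and Cd8a (1.96), whereas Cd4 (-0.07, adjusted p = 0.882) and Foxp3 (-0.52, adjusted p = 0.249), the regulator of regulatory T cells, were not called. All 10 interferon-gamma response genes were higher in transplants, including Irf1 (0.996). Macrophage markers were split, with 1 of 9 higher and 1 lower, and the skeletal muscle markers did not pass in either direction. Of 7 sarcoma and fibroblast markers 6 were lower and 1 higher, none of 6 regulatory T cell markers passed, and of 6 NK cell markers 2 were higher and 1 lower.

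**Figure D2:**
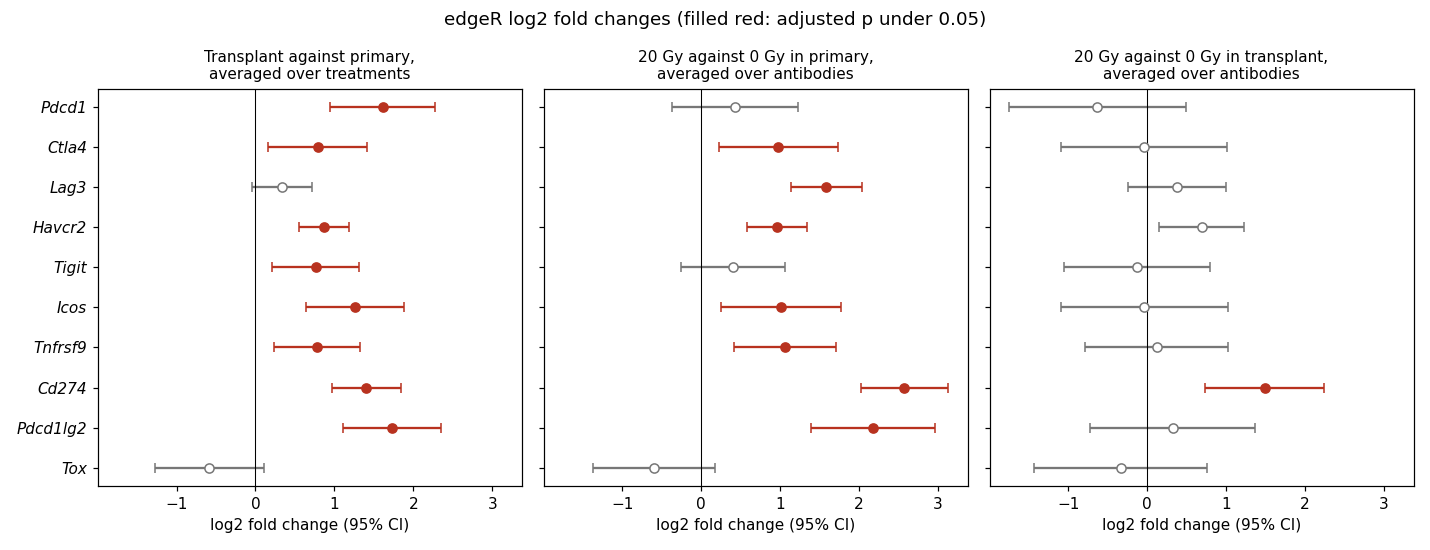
Fitted log2 fold change with its 95% confidence interval (horizontal axis) for each of the 10 genes in transplant against primary tumors, in 20 Gy against 0 Gy in primary tumors, and in 20 Gy against 0 Gy in transplants. Filled red points passed an adjusted p of 0.05: 8 genes in the model comparison, 7 for radiation in primary tumors, and Cd274 alone for radiation in transplants.

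The second comparison asks what 20 Gy did within each model. Cd274 rose in both. Averaged over antibodies, 7 of the 10 genes were higher after radiation in primary tumors and none was lower, against 16.8% of all genes called higher. In transplants only 1 of the 10, Cd274, was higher, against 5.85% of all genes. A test of the difference in radiation effect between the models called none of the 10, and 0.0259% of all genes in either direction, so that the larger number in primary tumors was not shown to differ from that in transplants.

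In primary tumors with isotype antibody, Cd274 rose from 3.18 to 20.5 CPM (median 5.67) without radiation to 31.8 to 103.3 CPM (median 52.2) after 20 Gy. All 8 irradiated tumors lay above all 8 unirradiated ones, and the log2 fold change was 2.88 ± 0.40 (adjusted p = 2.98e-06). In transplants with isotype antibody it stood at 77.8, 81.9, 89.4 and 100.04 CPM after 20 Gy, again without overlap, but the log2 fold change of 1.72 ± 0.53 missed the threshold (adjusted p = 0.0839). Averaged over antibodies, the transplant value was 1.49 ± 0.37 (adjusted p = 0.00765) and the primary value 2.57 ± 0.28 (adjusted p = 4.79e-09).

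Pdcd1lg2, the second PD-1 ligand, rose in primary tumors with isotype from a median of 0.247 CPM to 1.34 CPM, with ranges that overlapped, and had an averaged log2 fold change of 2.18 ± 0.39 (adjusted p = 3.62e-05). In transplants the averaged value was 0.32 ± 0.52 (adjusted p = 0.813). Lag3, an inhibitory receptor that binds MHC class II, rose in primary tumors from 2.44 to 10.95 CPM to 9.02 to 25.4 CPM with isotype, and its averaged log2 fold change was 1.58 ± 0.22 (adjusted p = 6.60e-07). In transplants it was 0.38 ± 0.31 (adjusted p = 0.558). For these 3 genes the interaction had an unadjusted p under 0.05 but adjusted values of 0.464 for Cd274, 0.323 for Pdcd1lg2 and 0.240 for Lag3. Of all 19327 genes tested, 1652 had an unadjusted interaction p under 0.05.

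Havcr2 rose in primary tumors from a median of 17.5 CPM to 38.6 CPM with isotype (averaged log2 fold change 0.96 ± 0.19, adjusted p = 0.000121). In transplants it moved from 33.2, 41.7, 45.8 and 22.3 CPM to 62.0, 46.5, 63.1 and 76.4 CPM with isotype, with no overlap, but its averaged value of 0.69 ± 0.26 was not called (adjusted p = 0.112). Tnfrsf9, which drives survival of activated CD8 T cells and NK cells, was higher in irradiated primary tumors (1.06 ± 0.32, adjusted p = 0.0102). Untreated primary tumor replicate 4 held 26.9 CPM of it, where the next highest of that group held 5.93. Without that tumor, a choice made after seeing the data, Tnfrsf9 was also called in 4 comparisons that otherwise missed it, among them transplant against primary tumors without treatment (log2 fold change 2.13, adjusted p = 0.000791) and radiation in primary tumors with isotype (2.10, adjusted p = 7.73e-05).

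Ctla4 (0.97 ± 0.37, adjusted p = 0.0429) and Icos (1.01 ± 0.38, adjusted p = 0.0365) were called in primary tumors averaged over antibodies. Both lost the call without combination replicate 4, the T cell rich tumor, with log2 fold changes of 0.64 and 0.57. Pdcd1 (0.43 ± 0.40, adjusted p = 0.433), Tigit (0.40 ± 0.33, adjusted p = 0.378) and Tox (-0.60 ± 0.38, adjusted p = 0.242) were not called after radiation in primary tumors. In transplants Pdcd1 had a value of -0.63 ± 0.56 (adjusted p = 0.601).

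With isotype antibody alone, 5 of the 10 genes were higher after radiation in primary tumors, Cd274, Pdcd1lg2, Ctla4, Lag3 and Havcr2, against 9.19% of all genes. None was called in transplants, against 1.82% of all genes. At an unadjusted p under 0.05 by edgeR, 2 of the 10 passed, beside 2335 of the 19327 genes tested. DESeq2 and limma each called 1 of the 10, and their shares over all genes are not given. By edgeR 1 was called without untreated transplant replicate 3 or without combination primary replicate 5. The combination against no treatment called 6 genes in primary tumors, against 11.4% of all genes, of which Ctla4 (adjusted p = 0.180) and Icos (adjusted p = 0.167) lost the call without combination replicate 4. It called 1 in transplants, Cd274 with a log2 fold change of 2.36 ± 0.55 (adjusted p = 0.00706), against 4.13% of all genes. The call in transplants was lost without untreated transplant replicate 4 (adjusted p = 0.0564). These comparisons share their untreated tumors with the comparisons above.

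None of the 14 T cell markers was called for radiation in either model averaged over antibodies. Cd3e had a log2 fold change of 0.32 in primary tumors (adjusted p = 0.600) and -0.25 in transplants (adjusted p = 0.886). Cd4 had 0.64 in primary tumors (adjusted p = 0.131). Macrophage markers were higher for 7 of 9 genes in primary tumors and 5 of 9 in transplants, and interferon-gamma response genes for 9 of 10 and 4 of 10. In primary tumors 5 of 6 NK cell markers, 4 of 6 neutrophil markers and 2 of 6 regulatory T cell markers were higher after radiation, whereas in transplants 0, 1 and 0 were. The part of these cells in the results was not tested. In primary tumors 8 of 9 skeletal muscle markers were also higher after radiation. Their summed level ran from 63.7 to 5653 CPM in untreated primary tumors and from 278 to 44754 CPM after 20 Gy with isotype, but the medians were 1662 and 1341 CPM. With the muscle markers' mean as a term in the model, 5 of the 10 genes were still called in primary tumors and Ctla4 (adjusted p = 0.167) and Icos (adjusted p = 0.239) were not. With the same term, Ctla4 (adjusted p = 0.0766) and Tigit (adjusted p = 0.0625) also lost their calls in the averaged comparison of the models.

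Anti-PD-1 antibody called none of the 10 genes in either model at 0 or 20 Gy by edgeR, and 0% of all genes. At an unadjusted p under 0.05, 4 of the 10 passed in primary tumors without radiation (Pdcd1, Ctla4, Tigit and Icos), 2 in transplants without radiation (Cd274 and Pdcd1lg2), none in irradiated primary tumors and 1 (Ctla4) in irradiated transplants. Of all 19327 genes tested, 707 passed at that same threshold in primary tumors without radiation and 1955 in irradiated primary tumors. In irradiated transplants 513 did, and in transplants without radiation fewer than 513. DESeq2 and limma also called none of the 10 in these 4 comparisons. Ctla4 did not overlap between irradiated transplants given anti-PD-1 (6.06, 10.1, 10.6 and 11.9 CPM) and those given isotype (3.29, 2.03, 5.43 and 2.71 CPM), with a log2 fold change of 1.52 ± 0.75 (adjusted p = 0.936). Cd274 likewise did not overlap there, at 107.6 to 163 CPM with anti-PD-1 and 77.8 to 100.04 CPM with isotype, with a log2 fold change of 0.63 ± 0.52. They were the only 2 of the 10 without overlap there, and the share over all genes is not given. The difference in anti-PD-1 effect between the models was not called for any of the 10, nor for any gene tested, which is 0%.

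The third comparison sets each gene against CD3, the signalling chains of the T cell receptor, to ask whether a gene differed beyond T cell RNA in the same tumor. The quantity, called the log2 ratio, is the gene's log2 CPM minus the mean of the log2 CPM of Cd3d, Cd3e and Cd3g. The tests are two-sided permutation tests, exact for the untreated tumors and within treatment or antibody otherwise, with p adjusted over 40 tests. On this scale none of the 10 genes was higher in transplants. Averaged over treatments the difference between transplant and primary tumors was 0.12 for Pdcd1 (permutation p = 0.373), -0.30 for Icos (permutation p = 0.136), -0.39 for Cd274 (permutation p = 0.170) and -0.05 for Pdcd1lg2 (permutation p = 0.827).

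Against CD3, 5 genes were lower in transplants. CD3 was itself higher there, so a gene at equal level in both models falls on this scale. The median difference over all 19327 genes was -1.87, and 94.8% of them had a difference at least as low as that of Ctla4, the smallest of the 5. Of the 5, Tox alone lay below that median. Tox had the largest difference, -2.26, with a mean log2 ratio of -3.34 ± 0.59 (SD, n = 16) in transplants and -1.08 ± 0.90 (SD, n = 32) in primary tumors. For Tox the permutation p of 1e-05 is the smallest these permutations can give, and in the untreated tumors alone the difference was -3.07 (exact permutation p = 0.00202), against a median of -2.06 over all genes. Lag3 followed at -1.51 (permutation p = 0.00018), then Havcr2 at -0.95 (permutation p = 0.00636), Tigit at -0.88 (permutation p = 0.0031) and Ctla4 at -0.77 (permutation p = 0.00041). The adjusted permutation p-values of the 5 ran up to 0.0221.

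The reference mattered for some of these. With the mean of the whole T cell list in place of CD3, which includes Cd4 and Thy1, Tox (-1.68) and Lag3 (-0.93) stayed lower in transplants, but Ctla4, Havcr2 and Tigit no longer passed (adjusted permutation p = 0.361, 0.257 and 0.289). Pdcd1 was then higher in transplants, by 0.70 (permutation p = 1e-05), and Pdcd1lg2 by 0.53 (permutation p = 0.0118). With Cd3e alone the same 5 genes were lower in transplants as with the 3 CD3 genes.

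**Figure D3:**
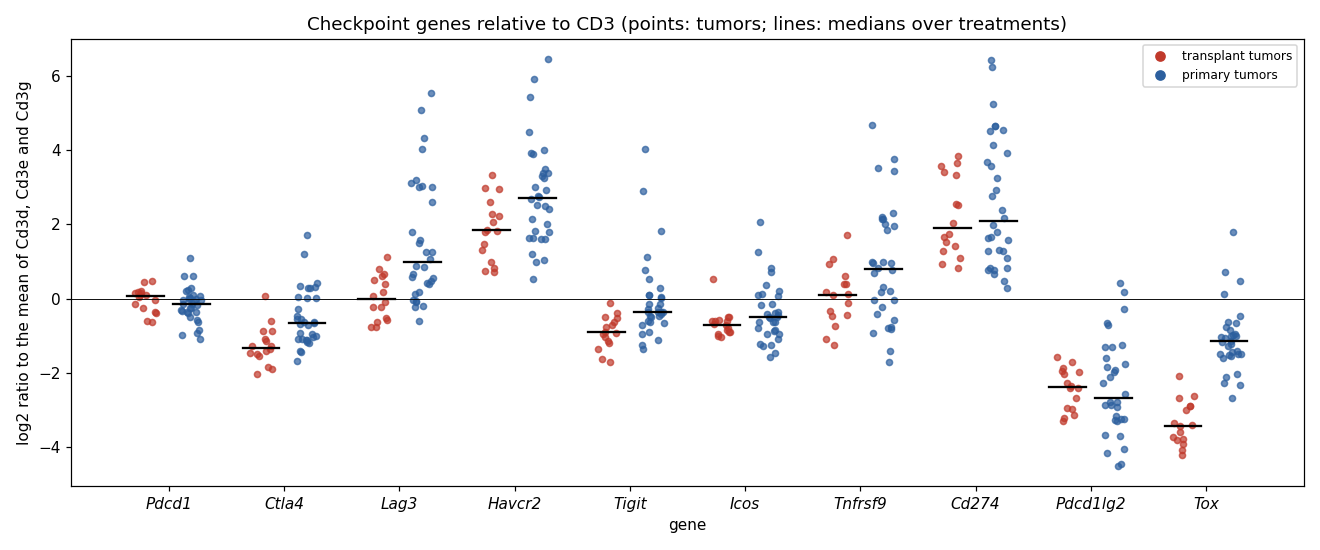
Log2 ratio of each gene to CD3, its log2 CPM minus the mean log2 CPM of Cd3d, Cd3e and Cd3g (vertical axis), in 16 transplant tumors (red) and 32 primary tumors (blue), with lines for medians over the 4 treatments. Tox lies lower in transplants, at a mean of -3.34 against -1.08, while Pdcd1 centres near 0 in both models. CD3 was itself higher in transplants, and the median difference over all genes on this scale was -1.87.

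After radiation, 7 genes were higher relative to CD3 in primary tumors and none was lower. The differences were 2.86 for Cd274 and 2.00 for Pdcd1lg2 (both with permutation p = 1e-05), 1.91 for Lag3 (permutation p = 0.00057), 1.58 for Tnfrsf9 (permutation p = 0.0037), 1.197 for Havcr2 (permutation p = 0.0138), 0.73 for Icos (permutation p = 0.00662) and 0.65 for Ctla4 (permutation p = 0.0142). Over all genes the median difference was 0.27, and 21.7% had a difference at least as high as that of Ctla4. The mean log2 CPM of Cd3e was 2.97 at 0 Gy and 1.77 at 20 Gy with anti-PD-1, but 1.69 and 2.10 with isotype. With anti-PD-1, a gene at equal level at both doses thus rises on this scale. With the T cell list as reference Ctla4 no longer passed (adjusted permutation p = 0.0942) and Tox was lower (-0.83, adjusted permutation p = 0.00555).

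In transplants 4 genes were higher relative to CD3 and 1 was lower. Cd274 was higher by 1.81 (permutation p = 0.00039), Havcr2 by 0.88 (permutation p = 0.0162), Pdcd1lg2 by 0.71 (permutation p = 0.00921) and Lag3 by 0.62 (permutation p = 0.0237). Pdcd1 was lower by 0.40, with a mean log2 ratio of -0.24 ± 0.31 (SD, n = 8) after 20 Gy and 0.16 ± 0.21 (SD, n = 8) at 0 Gy (permutation p = 0.0166). Over all genes the median difference was 0.13, with 14.2% at least as high as Lag3 and 6.56% at least as low as Pdcd1. Of the 19 alternative references, prior counts and left-out transplants tried, the adjusted p in transplants stayed under 0.05 in 19 for Cd274, 16 for Pdcd1lg2, 12 for Pdcd1, 9 for Havcr2 and 6 for Lag3.

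Among tumors treated alike, most of the genes varied with T cell RNA. The measure is the correlation of each gene's deviation from its group mean, in log2 CPM, with that of the mean of a marker list, tested by permutation within groups over 40 relations. In the 32 primary tumors all 10 genes were positively related to the 14-gene T cell list, and 13.5% of all genes had an r at least as high as that of Lag3, the lowest of the 10. Pdcd1 followed it most closely, with r = 0.95 and rho = 0.93 (adjusted permutation p = 8.0e-05 for each) and r = 0.92 without the 2 farthest tumors. Icos (r = 0.89, rho = 0.86) and Ctla4 (r = 0.89, rho = 0.87) were next. Lag3 (r = 0.41, rho = 0.40), Tnfrsf9 (r = 0.42, rho = 0.36) and Havcr2 (r = 0.50, rho = 0.52) followed it least, and by Spearman's rho Lag3 (adjusted permutation p = 0.0663) and Tnfrsf9 (adjusted permutation p = 0.113) did not pass.

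In the 16 transplants 8 of the 10 genes were related to the T cell list, with 3.47% of all genes at or above the lowest r of the 8, that of Tox. They were again led by Pdcd1 (r = 0.93, rho = 0.95, adjusted permutation p = 0.000114 for r). Lag3 was closely related there (r = 0.85, rho = 0.88, adjusted permutation p = 0.0015 for r). Tnfrsf9 (r = 0.00, rho = 0.09, adjusted permutation p = 0.990 for r) and Havcr2 (r = 0.40, rho = 0.42, adjusted permutation p = 0.255 for r) did not pass.

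With the macrophage list, 4 genes passed in primary tumors (Pdcd1, Cd274, Tox and Ctla4) and 2 in transplants (Pdcd1 and Tox), beside 9.15% and 10.9% of all genes with an r at least as high as the lowest of these. The difference between the lists was not tested. In primary tumors these relations leaned on the 2 farthest tumors. Cd274 had r = 0.57 and rho = 0.34 with all 32 tumors and r = 0.27 without those 2, and Ctla4 had r = 0.47, rho = 0.31 and r = 0.20. By rho, only Pdcd1 in primary tumors passed (rho = 0.47, adjusted permutation p = 0.0327).

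**Figure D4:**
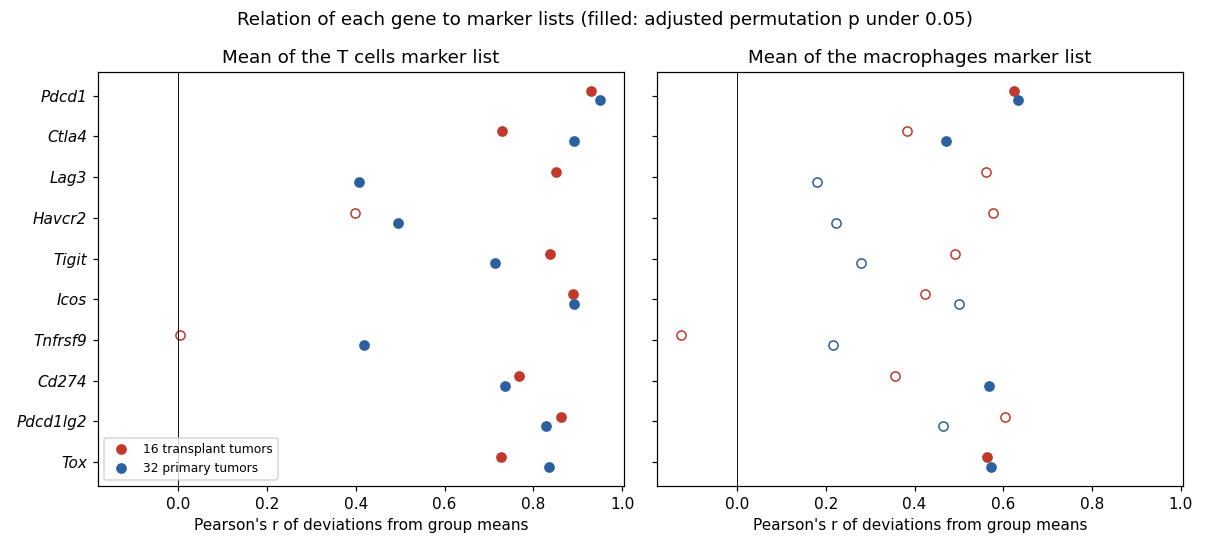
Pearson's r (horizontal axis) of each gene's deviations from group means with those of the mean of 14 T cell markers (left) and 9 macrophage markers (right), over 16 transplant tumors (red) and 32 primary tumors (blue), filled where the adjusted permutation p was under 0.05. On the left, Pdcd1 lies at 0.93 in transplants and 0.95 in primary tumors, and Tnfrsf9 in transplants lies at 0.00.

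The genes whose deviations were most like those of each checkpoint gene over all 48 tumors, among 13929 genes and given as a description without a test, differed between members. For Pdcd1 they were Cd3g (r = 0.94), Trac (0.94) and Cd2 (0.94), all T cell genes. Ctla4 was most like Cd2 (0.90), Cd6 (0.90) and Gimap3 (0.90), Icos most like Zap70 (0.92), Gimap3 (0.92) and Il18r1 (0.91), and the genes close to Tox included Ikzf3 (0.84) and Pglyrp2 (0.84). Cd274 was most like Il18bp (0.90), Gbp2b (0.90) and Tap1 (0.90), which are interferon-induced genes, and Pdcd1lg2 most like Nkg7 (0.84), Gm19585 (0.84) and Zap70 (0.84). Tigit was most like Il18r1 (0.83), Il7r (0.83) and Flt3 (0.82). The likeness was lower for Lag3, with Galnt6 (0.67) and St14 (0.63) among the closest, for Havcr2, led by Ostm1 (0.70), Runx3 (0.70) and Edem1 (0.68), and for Tnfrsf9, led by Zbtb32 (0.72), Klrg1 (0.72) and Gm19684 (0.71). Among the members themselves, Ctla4 and Icos were most alike (r = 0.95) and Lag3 and Tnfrsf9 least (r = 0.05).

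The partners of the members, the ligands and receptors they bind or work beside, were read from lists. Over all genes, 15.7% were higher and 19.1% lower in transplants, while radiation called 16.8% higher and 14.2% lower in primary tumors and 5.85% higher and 1.38% lower in transplants. The first list held B7 and CD28 family genes and receptors or ligands outside those families, such as Cd160, Tnfrsf14 and Sirpa. Of its 11 tested genes, 6 were higher in transplants averaged over treatments, led by Cd160 (log2 fold change 1.65) and Tnfrsf14 (0.93), and Cd86, a ligand of CD28 and CTLA-4, was among them (0.61, adjusted p = 0.00375). Radiation raised 6 in primary tumors, led by Cd80 (1.91, adjusted p = 2.69e-08) and Cd86 (1.21), and lowered 1, Cd276 (-0.76). In transplants it raised 5, led by Icosl, the ligand of ICOS (1.04), Cd80 (1.02) and Cd86 (1.01).

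Of 12 genes in the list of ligands of TIGIT, LAG-3 and TIM-3 and related receptors, 2 were higher and 2 lower in transplants, close to the shares over all genes. Cd226, which competes with TIGIT for shared ligands, was higher (1.31), and Nectin3, a TIGIT ligand, was lower (-0.72). Lgals9, a ligand of TIM-3, rose with radiation in primary tumors (1.09) and in transplants (1.17). Of 9 TNF-family costimulatory genes, 6 rose with radiation in primary tumors, led by Tnfsf4, the OX40 ligand (3.24, adjusted p = 9.69e-10), and 2 in transplants, Tnfsf4 (1.75) and Cd40 (1.48).

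Of 13 exhaustion and effector genes, 10 were higher in transplants, led by Ifng (2.37, adjusted p = 9.32e-06), Nr4a1 (1.65) and Gzmb (1.59), which encodes a granzyme of cytotoxic cells. Nr4a1 is also an immediate-early gene of many cell types, and it stood at 80.5 CPM in the library labelled parental tumor, which had almost no leukocyte RNA, against 10.02 to 39.2 CPM in untreated primary tumors. In primary tumors 5 rose with radiation, led by Gzmb (2.11) and Ifng (1.99). In transplants none rose and 2 fell, Nr4a1 (-1.87, adjusted p = 0.00458) and Nr4a3 (-1.76, adjusted p = 0.0114), immediate-early nuclear receptors.

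In the library labelled parental tumor, which held almost no leukocyte RNA, the members fell into 2 sets. Pdcd1, Ctla4, Pdcd1lg2 and Tox had 0 counts, and taking 3 counts as the limit that 0 allows gives 0.0682 CPM, and Icos had 1 count. Here CPM is scaled by TMM over all 50 libraries. Tigit had 238 counts (5.41 CPM, 95% exact Poisson interval 4.74 to 6.14), Havcr2 213 (4.84 CPM), Cd274 163 (3.71 CPM), Tnfrsf9 81 (1.84 CPM) and Lag3 32 (0.727 CPM). The intervals and the floor cover counting error only.

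Tigit was thus at 5.41 CPM with all 3 CD3 genes at 0 counts, above the 1.51 to 4.77 CPM of untreated primary tumors on the same scale. Cd274 and Tnfrsf9 lay within the range of the untreated primary tumors, and Havcr2 and Lag3 lay below it. In the library labelled cell line, Pdcd1 had 43 counts (0.929 CPM), Ctla4 19, Icos 32, Pdcd1lg2 11 and Tox 21, Tigit stood at 3.26 CPM, and Cd3e had 36 counts. Each is 1 library, so no test was made.

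**Figure D5:**
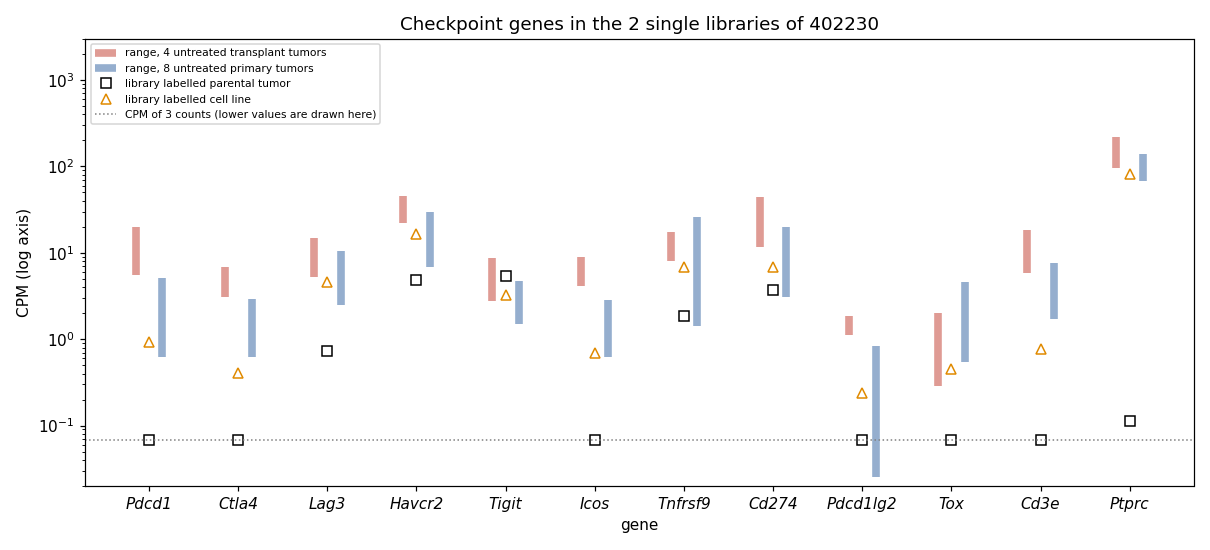
Level (CPM, log axis) of the 10 genes, Cd3e and Ptprc in the library labelled parental tumor (squares) and the library labelled cell line (triangles) of 402230, beside the range in untreated transplant (red) and untreated primary tumors (blue), with values of 3 counts or fewer drawn at the dotted line. Tigit, Havcr2, Cd274, Tnfrsf9 and Lag3 lie above the line in the library labelled parental tumor, while Pdcd1, Ctla4, Icos, Pdcd1lg2 and Tox do not.

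Among the 48 tumors, combination primary tumor replicate 5, named here after its values were seen, had the lowest Cd3e of all (0.2 CPM). It had 0.41 CPM of Pdcd1, 0.66 of Icos, 0.12 of Tox, 4.85 of Tigit, 13.7 of Lag3 and 26.0 of Havcr2. The medians of its group were 1.67, 3.82, 0.70, 4.29, 22.0 and 41.4 CPM in that order, so Lag3 and Havcr2 also lay below theirs. The other members are not given for this tumor.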

How the data were processed

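Bulk tumor RNA libraries were made with a stranded poly(A) kit. The submitters' processing notes and the study's methods name Trimmomatic 0.36 for trimming, STAR for alignment to mm10, and HTSeq for counting over GENCODE M17. The authors deposited raw counts per gene, not normalized. Identifiers were matched to symbols with GENCODE M21 of the same build (37408 of 37469). Groups came from the labels. The 136 pairs of libraries of one group all differed beyond counting noise (chi-square per degree of freedom at least 93.6). Library titles carry a separate number each, and p-values measure the spread between these tumors. Among transplants that spread is between tumors of the same line, not between lines.

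Counts were fitted with edgeR 4.0.16 (TMM, filterByExpr, robust quasi-likelihood test, 1 model of 48 tumors) and p-values were adjusted by Benjamini-Hochberg over all genes tested at 0.05. Levels are CPM after TMM, and log2 CPM used a prior count of 2. Permutation tests were two-sided, with 100000 permutations unless exact. DESeq2 1.42.0 and limma 3.58.1 were alternatives. Scripts were tested on simulated data. Named genes were the 10 members, CD3, Cd4, Cd8a, Foxp3, Ptprc, Irf1, Cd80, Cd86 and, as a rule, up to 4 called genes per partner list by size of change. The members and lists were chosen with earlier results of these data known, and motifs were chosen after the data were seen. Of the B7 and CD28 family list, 11 of 13 genes could be tested. For Lag3 and Tox, 1 of the 3 genes most like each is not reported here.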

Additional observations from a re-analysis of the deposited data

Results flagged for a closer look

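Of 80 combinations of gene and group examined for a single tumor standing apart by Dixon's test, 2 were flagged, and chance flags about 1 in 20. Ctla4 in untreated transplant replicate 2 stood at 7.08 CPM, where the next highest of the 4 tumors held 3.36 CPM. Tigit in combination transplant replicate 1 stood at 4.99 CPM, where the next lowest of the 4 held 8.33 CPM. In a library outside the comparisons, Tigit stood at 5.41 CPM in the library labelled parental tumor of 402230, above the highest untreated primary tumor, at 4.77 CPM, on the same scale. That library's markers went against its label.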

How the results depend on the processing

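No member that was called reversed its direction under any alternative run. Of the single-gene values recomputed, 1275 kept their side of the threshold, 75 lost the call and 46 gained one. The counts of genes called that changed by over 1.5 times are given first. In transplant against primary tumors with anti-PD-1 alone, 4 became 2 with no filter on low counts, 2 with the library labelled parental tumor added, whose markers went against its label, and 7 with only the groups compared. After the combination, 0 became 5 with limma voom. For radiation in transplants with isotype, 0 became 1 with limma voom, with DESeq2 and with only the groups compared. For radiation in transplants averaged over antibodies and for the combination in transplants, 1 became 2 with only the groups or the model compared. Leaving out single libraries gave 1 to 6 for untreated transplant against primary tumors, 2 to 5 for anti-PD-1, 0 to 4 for the combination, 0 to 1 for radiation in transplants with isotype and 0 to 1 for the combination in transplants. Among smaller changes, the 7 genes of radiation in primary tumors averaged over antibodies became 5 with limma voom, with no filter and with only that model, losing Ctla4 and Icos each time, and the 6 of the combination in primary tumors became 4 with only the groups compared. The causes were not tested, and the shares of all genes called in these alternative runs are not given. The 20 of 40 gene-by-comparison tests past the threshold relative to CD3 ranged from 15 to 20 without single libraries, and the 24 relations to marker lists from 20 to 26. Among those 20, 3 were genes lower in untreated transplants and 5 were genes lower in transplants within treatment. Differences at least as low as the smallest of each were held by 90% and 94.8% of all genes. Leaving out the untreated primary tumor with the highest Tnfrsf9 and the combination primary tumors with the highest and lowest CD3 was chosen after seeing the data. No paired analysis was made, because each tumor library carries its own number and the labels give no pairs. Replicate numbers used here follow the order of the libraries within each group. Low genes such as Pdcd1lg2, at 0.027 CPM in 1 primary tumor, rest on few counts there.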
